A study of Homo sapiens with 9 samples.

Results

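BJAB cells are a long-established line of human B cells, which the labels put down to a Burkitt lymphoma. The unmodified parental line, the control of a study of the receptor TACI, was profiled here from the 3 of 9 RNA-sequencing libraries whose titles name the plain cell line. The other 6 libraries, from cells given the long or the short isoform of TACI, were not used. The 3 libraries, replicates 1 to 3, have no added gene in their titles, were labelled untreated, and came from polyadenylated RNA of sorted cells with an RNA integrity number above 8. Nothing in the labels says which cells the sort kept, or whether the replicates were separate cultures, so the spread between them may be technical. A single line stands here for its tumour type, and each level is an average over the cells of a library, in which fewer expressing cells and less RNA per cell cannot be told apart.

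Mature B cells that meet antigen with T-cell help enter the germinal centre, where they divide fast, mutate their immunoglobulin genes and compete for survival. Cells of the dark zone divide and mutate, and cells of the light zone test their receptor and receive help, before some become memory or plasma cells. The factor BCL6 holds cells in this state, PRDM1 and IRF4 drive the plasma cell programme, and most Burkitt lymphomas and many diffuse large B-cell lymphomas keep the germinal centre programme. TACI (TNFRSF13B), BAFF receptor (TNFRSF13C) and BCMA (TNFRSF17) are the receptors for the cytokines BAFF and APRIL, which sustain B cells and plasma cells.

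Levels are given as TPM, transcripts per 1000000 transcripts, computed from the deposited counts and gene lengths, so that genes of different length can be set side by side. Changes between libraries are given as CPM, counts per 1000000 counts. The deposited lengths count every exon of a gene, and using the longest transcript in its place moved the level of 172 of 718 listed genes by over 1.5-fold, so small differences in level between genes are not read. A gene is called expressed at 1 TPM or more in all 3 libraries, and silent where it had 0 counts in all 3. Values written with ± are the mean and the standard deviation of the 3 libraries (SD, n = 3).

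The 4 genes given as marks of the line were all expressed. IGHM, the constant region of the IgM heavy chain (ENSG00000211899, chr14:105851708-105856218, minus strand, hg38), stood at 6591, 6214 and 6342 TPM in replicates 1, 2 and 3. CD79B, a signalling chain of the B-cell receptor (ENSG00000007312, chr17:63928740-63932354, minus strand), stood at 1259, 1179.9 and 1195 TPM. MS4A1, which encodes CD20 (ENSG00000156738, chr11:60455752-60470760, plus strand), stood at 501, 500.3 and 479 TPM. PAX5, the factor that maintains B-cell identity (ENSG00000196092, chr9:36833275-37034185, minus strand), stood at 127, 140.0 and 133 TPM. No library stood apart in any of the 4 genes, and the defining markers of a B cell were present in each.

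Total counts were 45999342, 43554984 and 46660642 in replicates 1, 2 and 3, and 24670 to 25230 genes had a count. The 100 genes with most counts held 20.9 to 21.3% of all counts. Replicate 1 stood apart: counts of replicates 2 and 3 differed with a chi-square per degree of freedom of 2.57, against 6.12 and 6.35 for the pairs with replicate 1. Among 12072 genes with a mean of at least 1 CPM, 86 differed at least 1.5-fold between replicates 2 and 3, 236 between 1 and 2, and 219 between 1 and 3. No pair agreed within sampling noise, and the common biological coefficient of variation was 0.0371. The genes in which replicate 1 lay at least 1.5-fold from both others are described at the end. How much of the chi-square they account for was not tested. Levels of several listed genes among them are given library by library.

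Of 19737 protein-coding genes, 10326 (52.3%) were expressed, and their median level was 24.3 TPM. Silent were 18.7%. Counts of expressed or silent members of any list or family below are to be read beside these 2 shares. The lists were chosen with earlier results of these data known, so their counts are a description. At 100 TPM or more there were 1629, and at 1000 TPM or more 108, of which 95 are nuclear. The 13 protein genes of the mitochondrial genome took 9.81, 11.4 and 12.4% of all TPM in replicates 1, 2 and 3, lowest in replicate 1. The cytosolic ribosomal protein genes took 10.5% ± 0.378 and 81 of 83 were expressed. The 2 that were not, RPL10L at 0.0305 TPM and RPL3L at 0.468 TPM, are paralogs known from testis and from muscle. RPS12 was the highest ribosomal gene at 5242 ± 121 TPM.

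The nuclear protein-coding genes of highest level, a class that leaves out immunoglobulin genes, serve energy, protein synthesis and the cytoskeleton. The glycolytic enzyme GAPDH led at 7751, 7300.3 and 7143 TPM. The actins followed, with ACTG1 at 7053 ± 78.5 and ACTB at 6209 ± 151 TPM, and LCP1, the leukocyte actin-bundling plastin, stood at 5730.4 ± 77.6 TPM. YBX1, an RNA- and DNA-binding protein, stood at 6432 ± 103 TPM, and the elongation factors EEF1A1 and EEF2 at 6204 ± 147 and 3702 ± 80.1 TPM. The chaperone HSP90AB1 (3603 ± 41 TPM), the chromatin proteins PTMA (3242 ± 68.2 TPM) and HMGA1 (2745 ± 70.8 TPM) and the ATP synthase subunit ATP5F1B (2504 ± 79.2 TPM) were also among the first 20. The same 20 held the ribosomal genes RPS2, RPL13A, RPS18, RPS6 and RPL7A, the enolase ENO1, and CD74, the invariant chain of MHC class II, at 2530.0 ± 115 TPM.

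**Figure D1:**
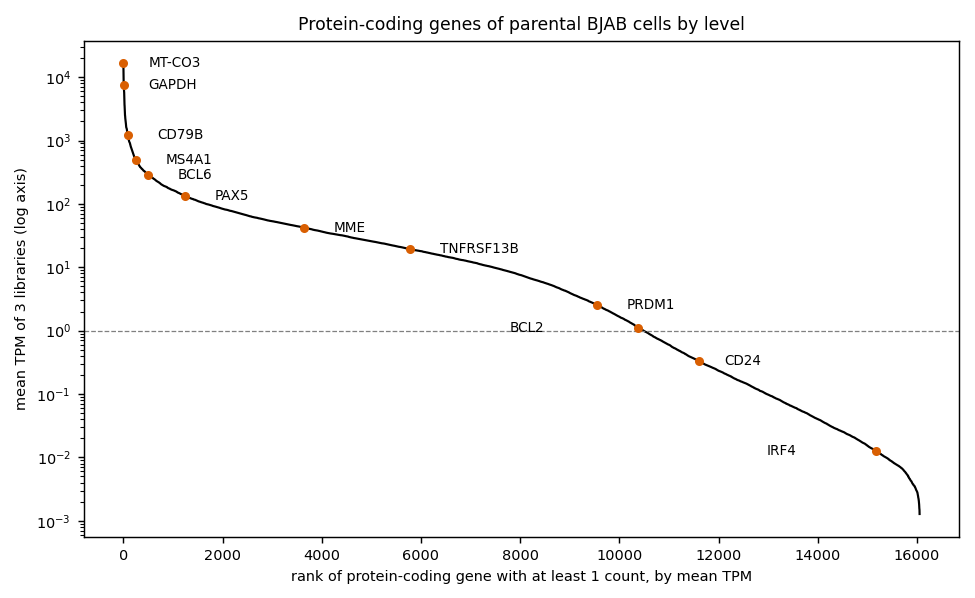
Protein-coding genes with at least 1 count, ranked by mean TPM of the 3 libraries (log axis); the dashed line marks 1 TPM and orange points mark named genes. B-cell genes CD79B and MS4A1 sit near the top, TNFRSF13B near the middle of the expressed genes, and IRF4 at the far low end.

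Of the B-cell surface list 17 of 20 genes were expressed, 12 of them at 100 TPM or more. CD79A, the partner chain of CD79B, stood at 2271 ± 97.8 TPM, and the ratio of the pair was 1.87 ± 0.0161. The pan-leukocyte tetraspanin CD53 reached 909.7 ± 22.4 TPM and the inhibitory lectin CD22 455 ± 8.07 TPM. The B-cell protein FCRLA stood at 324 ± 7.98 TPM and the phosphatase PTPRC (CD45) at 286 ± 10.7 TPM. The complement receptor CR2 (CD21), high on resting follicular B cells, was low at 6.16, 5.68 and 6.16 TPM in replicates 1, 2 and 3. The remaining 3 members were under 1 TPM: FCER2 (CD23) at 0.467, 0.625 and 0.727 TPM, CD24 at 0.331 ± 0.0168 TPM and the scaffold BANK1 at 0.184 ± 0.0238 TPM.

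Among B-lineage transcription factors 19 of 20 were expressed. POU2F2 (Oct-2) was the highest at 331 ± 4.36 TPM and its co-activator POU2AF1 (OCA-B) stood at 139.7 ± 3.1 TPM. The ETS factors SPIB and SPI1 stood at 243 ± 10.4 and 208 ± 2.68 TPM, and the E protein TCF3 (E2A) at 235 ± 5.74 TPM. IRF8, which acts with SPI1 in germinal centre cells, stood at 126 ± 1.73 TPM. EBF1, which specifies the B lineage together with PAX5, was lower at 32.8 ± 0.349 TPM, and BACH2, a repressor of the plasma cell fate, stood at 7.86 ± 0.434 TPM. Of the Ikaros family, IKZF1 (109 ± 2.54 TPM) and IKZF3 (70.9 ± 0.598 TPM) were expressed and IKZF2, the T-cell member, was at 0.128 ± 0.0277 TPM.

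The early B-cell list was split. VPREB3, a pre-B-cell protein that associates with mu chains, was high at 387, 375 and 364 TPM in replicates 1, 2 and 3. Of the surrogate light chain genes IGLL1 was high at 354 ± 20.7 TPM and VPREB1 stood at 12.6 ± 1.02 TPM. The other 7 of 10 genes were under 1 TPM. They include the recombinase genes RAG1 (8, 5 and 12 counts) and RAG2 (0, 0 and 1 counts), the polymerase DNTT (1, 2 and 2 counts) and IL7R (0.0684 ± 0.0409 TPM), and the stem cell factor receptor KIT was silent. The split was the same in all 3 libraries. IGLL5, which shares sequence with IGLL1 and with lambda constant genes, was listed at 283 ± 10.7 TPM, and reads of these near-identical genes cannot be fully told apart.

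Immunoglobulin counts lay on the mu heavy chain and the kappa light chain. IGHM made up 96.0% ± 0.0776 of the counts on heavy chain constant genes and IGHD, which encodes IgD, 3.88% ± 0.0707. In TPM, IGHM exceeded IGHD 22.6 ± 0.43-fold. IGKC, the kappa constant gene, stood at 5655, 5319 and 5303 TPM and exceeded the lambda gene IGLC2 60.8 ± 1.96-fold. Of the other classes IGHG3 (2.82 ± 0.512 TPM) and IGHG1 (1.37 ± 0.279 TPM) were slightly above 1 TPM, and with the length of the longest transcript in place of all exons they fell to 0.841 and 0.937 TPM. IGHA1, IGHA2, IGHG4 and IGHE were under 1 TPM, and IGLC1 was silent. The joining chain JCHAIN, which links secreted IgM, stood at 1012 ± 47.7 TPM.

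Counts on variable segments were concentrated on a few. IGHV3-30 held 72.1% ± 0.885 of 2190 to 2526 heavy V counts per library, followed by IGHV3-33 with 11.6% ± 0.725 and IGHV4-34 with 9.14% ± 1.14. IGHD6-25 held 96.4% ± 1.33 of 360 to 402 counts on D segments. IGHJ5 and IGHJ6 held 41.7% ± 1.6 and 38.6% ± 0.989 of J counts. On the kappa locus IGKV1-39 held 93.9% ± 0.597 of 12213 to 14466 V counts, and its distal copy IGKV1D-39 3.74% ± 0.314. On the lambda locus IGLV6-57 held 64.3% ± 2.39, of only 819 to 914 counts. V segments of a family are near-identical and a rearranged, mutated read may align to a neighbour or to none, so the shares describe where counts were assigned and not the clone.

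The germinal centre list was expressed in 25 of 26 genes, against 52.3% of all protein-coding genes. Its median was 68 TPM, against 1.88 TPM over all protein-coding genes, silent ones included, and 24.3 TPM over the expressed ones. The list was chosen with earlier results of these data known, so these values are a description. The highest on the deposited lengths was IRAG2 (LRMP), an endoplasmic reticulum protein of germinal centre B cells, at 519, 516 and 489 TPM in replicates 1, 2 and 3. RGS13, which dampens chemokine signalling there, stood at 403, 399.9 and 374 TPM. With the longest transcripts the order of these genes turned, with RGS13 at 989 and IRAG2 at 478 TPM. BCL6 stood at 286, 290.4 and 286 TPM. The transcription factor MEF2B reached 197, 186 and 171 TPM, and the germinal centre serpin SERPINA9 182, 179 and 169.8 TPM. MEF2B was highest in replicate 1 and lowest in replicate 3, and the other 4 differed less between libraries.

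The signalling arm that keeps germinal centre cells in place was present as a set: the receptors S1PR2 (117 ± 3.41 TPM) and P2RY8 (156 ± 3.65 TPM) and the G protein GNA13 (307 ± 18.1 TPM), through which both signal. TCL1A, an AKT co-activator, stood at 237 ± 11.5 TPM and the methyltransferase EZH2 at 220.1 ± 3.08 TPM. The adaptor GCSAM stood at 74.1 ± 3.91 TPM, the death receptor FAS at 68.7 ± 2.65 TPM, CD38 at 59.2 ± 0.528 TPM and MME (CD10) at 42 ± 2.07 TPM. MYBL1 stood at 27.4 ± 1.74 TPM and LMO2 at 11.7 ± 0.532 TPM. SUGCT was the 1 member that was not expressed, at 0.197 ± 0.0368 TPM.

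**Figure D2:**
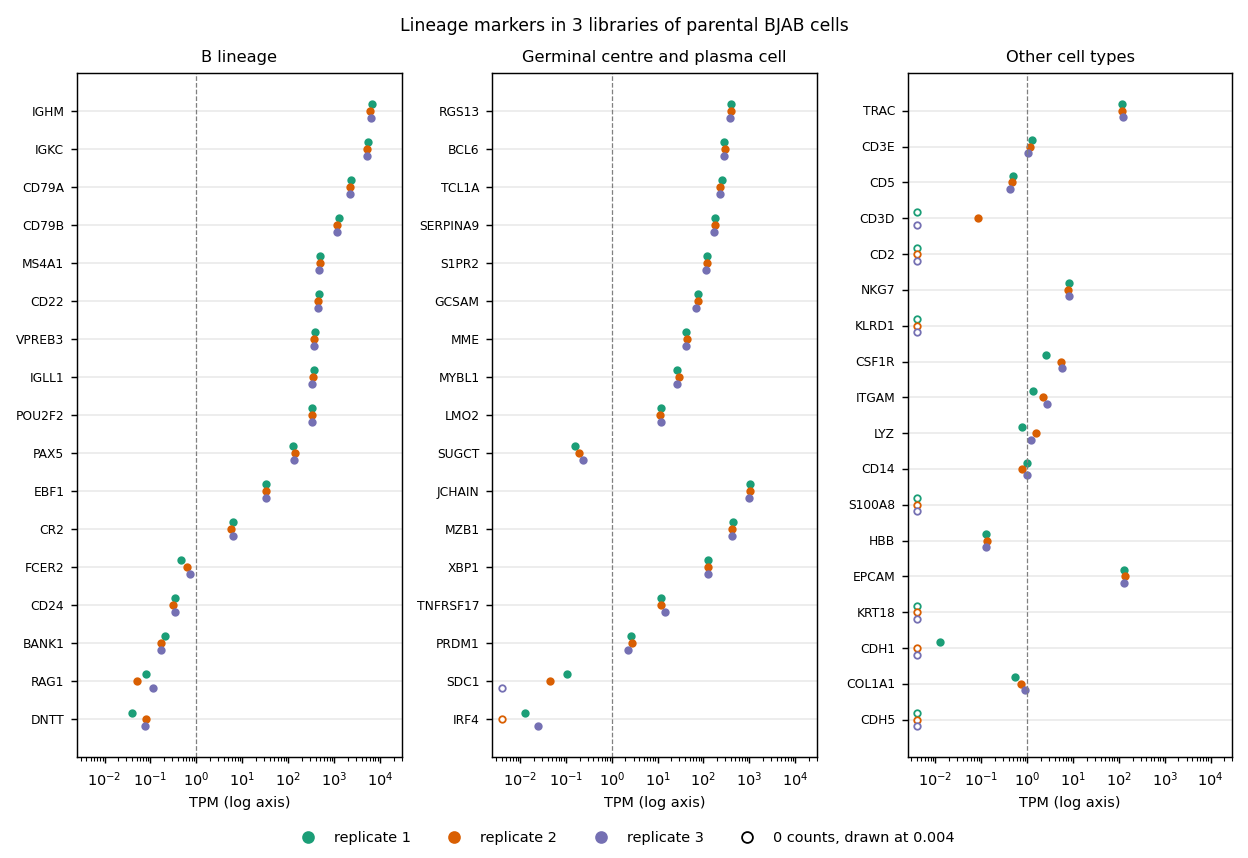
TPM (log axis) of lineage markers in each of the 3 libraries, by panel; open points at 0.004 are libraries with 0 counts and the dashed line marks 1 TPM. B-cell and germinal centre genes lie mostly far to the right of the line with overlapping points, IRF4 and SDC1 sit near 0, and TRAC and EPCAM lie farthest to the right among the markers of other cell types.

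Genes of both zones were expressed. For the dark zone all 9 of 9 genes were expressed, led by TCF3, CCND3 (154 ± 6.65 TPM) and the kinase AURKA (147 ± 3.63 TPM), with CXCR4, the dark zone chemokine receptor, at 43.5 ± 3.08 TPM and FOXO1 at 41.5 ± 1.94 TPM. For the light zone 11 of 12 were expressed, and EGR1, an immediate early factor, was far above the rest at 907, 942 and 954 TPM. CD83 stood at 61.3 ± 0.825 TPM, CD40 at 41.3 ± 1.57 TPM, BCL2A1 at 39.5 ± 4.16 TPM and CD86 at 12.7 ± 0.106 TPM. EGR2 was the exception at 0.952, 1.09 and 0.987 TPM, and EGR1 exceeded it 927 ± 57.2-fold.

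Genes used in lymphoma to tell the germinal centre subtype from the activated B-cell subtype fell on different levels. All 7 germinal centre subtype genes were expressed, with a median of 73.9 TPM. Apart from SERPINA9, S1PR2, MME and MYBL1 above, they include the kinase ITPKB at 107 ± 2.11 TPM, ASB13 at 73.9 ± 0.318 TPM and MAML3 at 7.52 ± 0.466 TPM. Of the activated subtype genes 5 of 8 were expressed, with a median of 3.83 TPM. The kinase PIM2 was the highest at 96 ± 4.72 TPM. The next was TNFRSF13B itself (ENSG00000240505, chr17:16929816-16972118, minus strand), at 28.5, 15.1 and 14.2 TPM, with replicate 1 far above the other 2 libraries. RAB29 stood at 11.7 ± 0.429 TPM, and LIMD1 (0.168 ± 0.0314 TPM), CYB5R2 (0.132 ± 0.0401 TPM) and IRF4 were not expressed.

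The plasma cell list was split along its regulators. Genes of the secretory pathway were expressed: MZB1, a chaperone of IgM assembly, at 426 ± 12.1 TPM, XBP1, the factor of the unfolded protein response, at 126 ± 2.97 TPM, and DERL3 and FKBP11 at 32 ± 1.03 and 28.1 ± 0.837 TPM. The surface proteins CD27 and SLAMF7 stood at 103 ± 3.12 and 77.1 ± 0.874 TPM. The fate regulators were low or near 0. PRDM1 stood at 2.63, 2.71 and 2.25 TPM, and BCL6 exceeded it 114 ± 10.9-fold. IRF4 had 1, 0 and 2 counts in replicates 1, 2 and 3, and SDC1, the plasma cell surface proteoglycan CD138, had 5, 2 and 0. A number of 3 counts corresponds to at most 0.041 TPM of IRF4 in a library.

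Because POU2F2 and POU2AF1 were both high and act on the octamer ATGCAAAT, the 250 bases before each start site in the RefSeq promoter table (GRCh38.p14) were searched for it on both strands. Of 75 genes in the surface, transcription factor, early and germinal centre lists, 61 are in the table and 5 (8.2%) hold the octamer in at least 1 promoter: CD53, MEF2B, MEF2C, SERPINA9 and VPREB3. Over all 27195 genes listed there, 552 (2.03%) do. Counted by promoter, the octamer stood in 4.5% of those of the listed genes and 1.63% of all. The lists were chosen and the search added with the levels known, so the shares are a description. The 3 below are shown because they belong to genes of the pre-B and germinal centre programmes at 150 TPM or more, with the octamer or its reverse complement ATTTGCAT in capitals, written 5′ to 3′ on the strand of the gene and ending at the base before the start.
VPREB3 (chr22:23754426-23754675, minus strand): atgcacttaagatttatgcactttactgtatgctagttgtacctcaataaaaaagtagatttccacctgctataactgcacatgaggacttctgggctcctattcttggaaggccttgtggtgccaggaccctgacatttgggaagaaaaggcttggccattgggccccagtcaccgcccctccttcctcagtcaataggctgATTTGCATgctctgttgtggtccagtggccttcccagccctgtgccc
MEF2B (chr19:19170264-19170513, minus strand): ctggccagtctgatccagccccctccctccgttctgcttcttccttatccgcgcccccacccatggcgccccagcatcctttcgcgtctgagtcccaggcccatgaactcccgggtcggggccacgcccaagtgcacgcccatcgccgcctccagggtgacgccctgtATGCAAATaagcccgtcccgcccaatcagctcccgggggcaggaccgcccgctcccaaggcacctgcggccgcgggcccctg
SERPINA9 (chr14:94476198-94476447, minus strand): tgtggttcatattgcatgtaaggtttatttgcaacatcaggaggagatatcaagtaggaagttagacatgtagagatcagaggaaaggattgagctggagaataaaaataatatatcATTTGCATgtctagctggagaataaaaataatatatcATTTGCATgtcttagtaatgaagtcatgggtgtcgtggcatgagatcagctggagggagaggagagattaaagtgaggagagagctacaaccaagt
The match begins 47 bases before the start in VPREB3 and 82 bases before it in MEF2B, and SERPINA9 holds 2 matches, 133 and 96 bases before the start. A match is a stretch of letters and no measure of binding.

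The B-cell receptor pathway was expressed nearly whole, in 23 of 26 genes. Of its kinases SYK stood at 192 ± 1.76 TPM, BTK at 108 ± 5.55 TPM, LYN at 81.6 ± 1.35 TPM, BLK at 74.1 ± 1.82 TPM and LCK, better known from T cells, at 79.3 ± 1.01 TPM. The phospholipase PLCG2 stood at 153 ± 1.96 TPM against 28.1 ± 1.23 for PLCG1, and the adaptor BLNK at 34.5 ± 0.874 TPM. The phosphatase PTPN6 (SHP-1), which limits the receptor, stood at 385 ± 12.4 TPM. BCL10 and MALT1, which carry the signal to NF-kB, stood at 18.9 ± 1.24 and 46.1 ± 1.43 TPM. PRKCB, a kinase upstream of them in B cells, was at 0.183, 0.297 and 0.266 TPM in replicates 1, 2 and 3, under 1 TPM in every library. The inhibitory Fc receptor FCGR2B (0.712, 0.716 and 0.558 TPM) was under 1 TPM on the deposited gene length and at 1.35 TPM with its longest transcript.

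Of TNF receptors 13 of 24 were expressed, near the 52.3% of all protein-coding genes. TNFRSF18 (GITR), a receptor best known on regulatory T cells, was the highest at 140.3, 124 and 138 TPM. CD27 followed at 107, 103 and 100.5 TPM. TNFRSF21 (DR6) stood at 72.1 ± 2.51 TPM, and the receptors for TRAIL TNFRSF10A and TNFRSF10B at 58 ± 0.472 and 42.5 ± 1.72 TPM. Their decoys TNFRSF10C (0.0986 ± 0.0365 TPM) and TNFRSF10D (0.382 ± 0.0829 TPM) were under 1 TPM.

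The 3 receptors for BAFF and APRIL were all present. TNFRSF13C, which binds BAFF alone, stood at 53.8, 46.9 and 48.1 TPM in replicates 1, 2 and 3. TNFRSF13B, which binds both cytokines, stood lower, at 14.2 and 15.1 TPM in replicates 3 and 2 and at 28.5 in replicate 1. TNFRSF17, which binds mainly APRIL, stood at 12.2, 11.9 and 14.4 TPM, near TNFRSF13B in replicates 2 and 3 and below it in replicate 1. With the longest transcript as length TNFRSF13B averaged 32.5 TPM and TNFRSF13C 32 TPM, so the order of these genes is not settled by these values. The ligand TNFSF13B (BAFF) was near 0 (0.0414 ± 0.0273 TPM) and TNFSF13 (APRIL) at 1.05 ± 0.373 TPM.

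**Figure D3:**
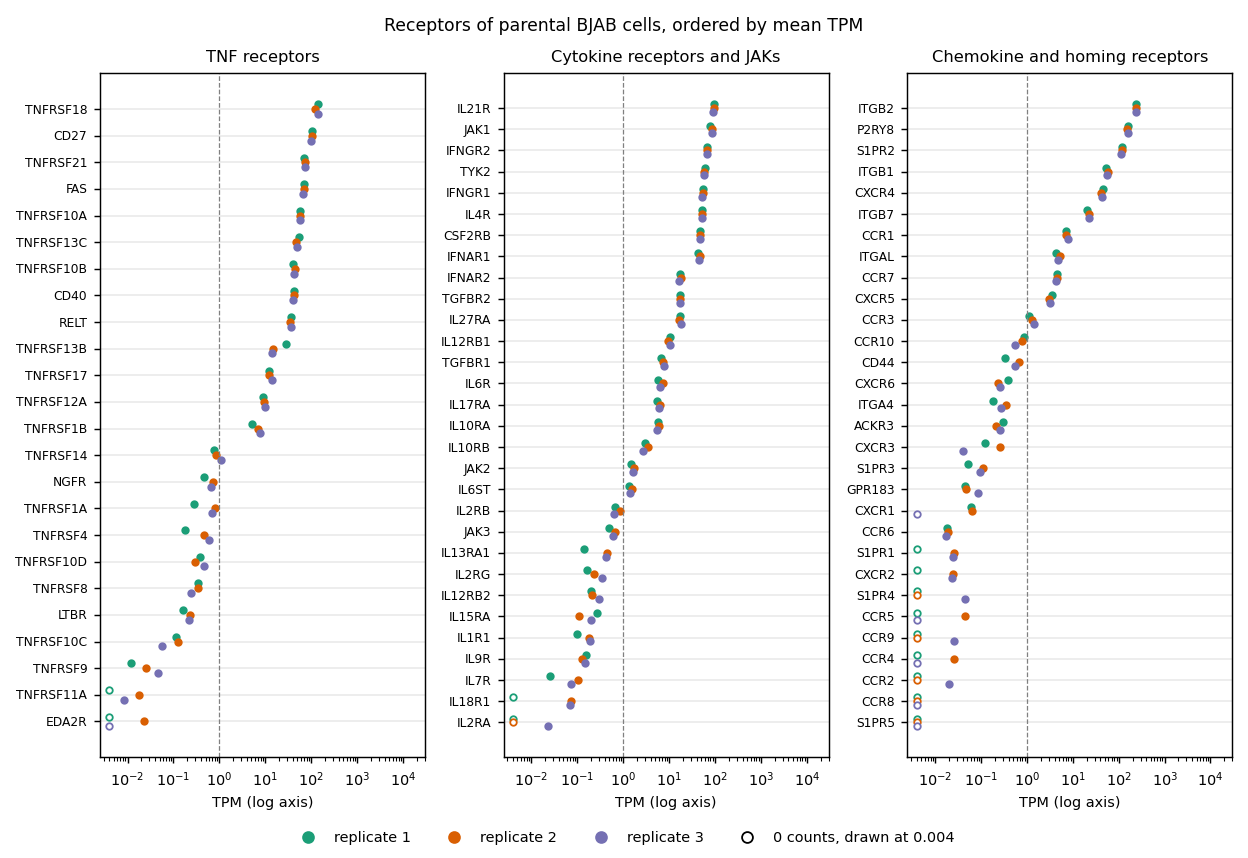
TPM (log axis) of TNF receptors, cytokine receptors with JAK kinases, and chemokine and homing receptors in each library, each panel ordered by mean TPM; open points at 0.004 are libraries with 0 counts and the dashed line marks 1 TPM. TNFRSF13B is the expressed receptor whose replicate 1 lies farthest from the other libraries.

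TNFRSF1B, a receptor for TNF, stood at 5.21, 6.89 and 7.75 TPM and TNFRSF1A, the other one, at 0.286, 0.786 and 0.686 TPM, both lowest in replicate 1. LTBR (0.201 ± 0.0381 TPM), TNFRSF9 (4-1BB, 0.0282 ± 0.0176 TPM) and TNFRSF8 (CD30, 0.31 ± 0.0622 TPM) were not expressed. TNFRSF14 (HVEM), often lost in germinal centre lymphomas, was at 0.905 ± 0.174 TPM, or 2.13 TPM with its longest transcript. Of the ligands LTB and LTA, which form lymphotoxin, stood at 52 ± 4.27 and 22.4 ± 2.43 TPM and TNF at 17.1 ± 1.05 TPM. TNFSF9 (4-1BB ligand) stood at 14.2 ± 0.418 TPM and CD70, the ligand of CD27, at 6.86 ± 0.605 TPM. CD40LG (0.0148 ± 0.0256 TPM) was not expressed and FASLG was silent.

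All 22 genes of the NF-kB list were expressed, at a median of 19.9 TPM and none at 100 TPM. RELA (67.3 ± 0.987 TPM), RELB (67.5 ± 0.82 TPM) and NFKB2 (56.8 ± 2.1 TPM) were above NFKB1 (18.5 ± 0.128 TPM) and REL (12 ± 2.44 TPM). The inhibitors NFKBIB and NFKBIA stood at 88.9 ± 1.66 and 21.4 ± 0.687 TPM. The lowest 3 were the feedback regulator TNFAIP3 (A20) at 2.41 ± 0.487 TPM, BCL3 at 3.36 ± 0.0637 TPM and the adaptor TRAF1 at 5.54 ± 0.0808 TPM.

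Of cytokine receptors and their JAK kinases 19 of 30 were expressed, against 52.3% of all protein-coding genes. IL21R, the receptor for the helper T-cell cytokine IL-21, was the highest at 96.2, 96 and 92.5 TPM. IL2RG, the common gamma chain that IL21R needs to signal, had 6, 8 and 13 counts, or 0.166, 0.234 and 0.35 TPM. JAK3, the kinase bound to that chain, stood at 0.504, 0.651 and 0.60 TPM, while JAK1 stood at 83.5 ± 3.22 TPM. IL21R exceeded IL2RG 418 ± 158-fold on the deposited lengths and 262-fold with the longest transcripts. IL4R stood at 52 ± 0.774 TPM, and the other partners of the gamma chain, IL2RB (0.724 ± 0.116 TPM), IL7R, IL9R (0.143 ± 0.0126 TPM), IL15RA (0.196 ± 0.0814 TPM) and IL2RA (1 count in 3 libraries), were under 1 TPM.

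The interferon receptors IFNGR1 and IFNGR2 stood at 54.4 ± 1.0 and 66.4 ± 0.647 TPM, IFNAR1 and IFNAR2 at 45.3 ± 2.02 and 17.3 ± 0.626 TPM, and TYK2 at 58.3 ± 1.09 TPM. CSF2RB, the beta chain shared by receptors for IL-3, IL-5 and GM-CSF, stood at 48.1 ± 0.21 TPM. The chains for IL-10 stood at 5.73 ± 0.18 TPM (IL10RA) and 3.07 ± 0.435 TPM (IL10RB), and IL10 itself was expressed at 21.7, 20.7 and 19.7 TPM. Of secreted cytokines and chemokines TGFB1 was the highest at 248, 244 and 247 TPM. CXCL8 (interleukin 8) stood at 24.5, 53.4 and 47.7 TPM, lowest in replicate 1. IL2, IL6, IL21, IFNG and CXCL13 were silent.

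Of chemokine and homing receptors 11 of 31 were expressed, against 52.3% of all protein-coding genes. The integrin beta chains ITGB2, ITGB1 and ITGB7 stood at 238 ± 4.13, 56.3 ± 3.0 and 21.6 ± 0.891 TPM. Their lymphocyte alpha partners were far lower: ITGAL, which pairs with ITGB2 as LFA-1, stood at 4.36, 5.32 and 4.79 TPM and ITGA4, which pairs with ITGB1 or ITGB7, at 0.184, 0.357 and 0.273 TPM. ITGB2 exceeded ITGAL 49.5 ± 4.27-fold, or 85.3-fold with the longest transcripts. CXCR4 exceeded CXCR5, the receptor for the follicle, 13.5 ± 0.35-fold, and CXCR5 stood at 3.23 ± 0.209 TPM. CCR7, which leads to the T-cell zone, stood at 4.42 ± 0.0336 TPM. S1PR1 (2 counts in all), CD44 (0.326, 0.682 and 0.539 TPM) and GPR183 (0.0599 ± 0.0238 TPM) were not expressed. KLF2, which drives S1PR1, had 3 counts in all, at 0.0393 ± 0.040 TPM.

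Of Toll-like receptors and their partners 12 of 17 were expressed, against 52.3% of all protein-coding genes. CD180, a surface member of B cells, stood at 191 ± 5.65 TPM with its partner LY86 at 61.1 ± 4.69 TPM. TLR10 stood at 34 ± 1.57 TPM and TLR4, with its partner LY96 at 28.4 ± 2.8 TPM, at 15 ± 0.726 TPM, or 3.96 TPM with its longest transcript. The endosomal receptors of B cells, TLR9 (0.651, 0.334 and 0.653 TPM) and TLR7 (0.41, 0.325 and 0.399 TPM), were under 1 TPM in every library. The adaptor MYD88 stood at 76.3 ± 1.37 TPM and the kinases IRAK1 and IRAK4 at 382 ± 5.63 and 17 ± 0.488 TPM.

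Of immediate early genes 18 of 25 were expressed, against 52.3% of all protein-coding genes. EGR1 was followed by the phosphatase DUSP2 at 419 ± 9.18 TPM, IER2 at 322 ± 9.74 TPM, JUND at 318 ± 3.73 TPM and JUNB at 247 ± 2.01 TPM. The activation marker CD69 stood at 47.4 ± 0.74 TPM and FOS at 37.6 ± 1.09 TPM. JUN was much lower than its relatives, at 0.82, 1.96 and 1.87 TPM, lowest in replicate 1. NR4A1, induced by antigen receptor signals, stood at 19.6 ± 0.359 TPM, and NR4A2 (0.0258 ± 0.011 TPM) and NR4A3 (0.568 ± 0.0385 TPM) were not expressed.

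Antigen presentation genes were expressed without exception, 15 of 15 for class I and 16 of 16 for class II. The class I heavy chains HLA-C and HLA-B stood at 356 ± 11 and 224 ± 10.4 TPM and their light chain B2M at 331 ± 5.64 TPM. With the longest transcripts B2M stood at 764 TPM and HLA-C at 371 TPM. The peptide transporter genes TAP1 and TAP2 stood at 32.4 ± 0.345 and 19.5 ± 0.814 TPM. For class II HLA-DRA and HLA-DRB1 stood at 903 ± 33.3 and 575 ± 9.97 TPM. HLA-DPA1 and HLA-DPB1 followed at 183 ± 5.06 and 69.5 ± 1.1 TPM, and HLA-DQB1 and HLA-DQA1 were lower, at 37.2 ± 1.13 and 9.71 ± 0.59 TPM. The class II master regulator CIITA stood at 9.88 ± 0.221 TPM. HLA genes are highly variable and alike, so reads of alleles that differ from the reference may be lost or shared.

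Genes of growth and division were high. MYC, the factor activated by translocation in Burkitt lymphoma, stood at 292, 279 and 286 TPM and exceeded its partner MAX 4.36 ± 0.18-fold, while MYCN was near 0 (0.0207 ± 0.0358 TPM). Whether MYC is translocated in this line was not tested. Of the cell cycle list 25 of 26 were expressed. The replication clamp PCNA stood at 1278 ± 33 TPM, the helicase subunits MCM7 and MCM4 at 681 ± 20.8 and 440.1 ± 7.73 TPM, and the mitotic genes CDC20, CCNA2 and CCNB1 at 395 ± 12, 378 ± 9.01 and 283 ± 8.42 TPM. Of the D cyclins CCND3, the one of germinal centre cells, stood at 161, 154 and 148 TPM, CCND1 at 4.98, 5.73 and 5.71 TPM, and CCND2 had 0, 0 and 2 counts in replicates 1, 2 and 3.

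Inhibitors of growth were also present. ID3, which restrains TCF3, stood at 274 ± 11 TPM and RB1 at 189.8 ± 10.3 TPM. CDKN2A, which encodes p16 and ARF and is often deleted in lymphoma lines, stood at 81.1, 76.5 and 74.1 TPM, with its neighbours CDKN2B at 0.389 ± 0.137 TPM and MTAP at 10.3 ± 0.472 TPM. The cell cycle inhibitor CDKN1A stood at 17 ± 3.14 TPM and the ubiquitin ligase MDM2 at 16 ± 0.578 TPM.

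Of apoptosis genes 19 of 22 were expressed, against 52.3% of all protein-coding genes. Among the guardians MCL1 stood at 294, 309 and 307 TPM, BCL2A1 at 39.5 ± 4.16 TPM and BCL2L1 (BCL-XL) at 29.8 ± 0.196 TPM. BCL2 was at the threshold, at 1.27, 1.15 and 0.941 TPM, and MCL1 exceeded it 276 ± 47-fold. BIRC5 (survivin) stood at 255 ± 6.01 TPM. Of the BH3-only killers BIK was the highest at 175 ± 4.09 TPM, followed by PMAIP1 (NOXA) at 53.4 ± 1.34 TPM and BCL2L11 (BIM) at 19.2 ± 0.895 TPM.

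Of nuclear metabolic genes, the 31 listed for glycolysis held 1.96% ± 0.0621 of all TPM, with 21 expressed. After GAPDH came ENO1 at 4125, 3870.2 and 3919 TPM. TPI1 stood at 1489 ± 49.3 TPM, the pyruvate kinase PKM at 1068 ± 29.1 TPM and ALDOA at 787 ± 25.9 TPM. With the longest transcripts their order turned, with PKM at 2178, ALDOA at 1873 and TPI1 at 1474 TPM. The lactate dehydrogenases stood at 1533 ± 24.2 TPM (LDHB) and 1117 ± 26.9 TPM (LDHA). Their ratio was 1.37 ± 0.0261 on the deposited lengths and 1.04 with the longest transcripts. Hexokinase came from both HK2 (126 ± 6.12 TPM) and HK1 (96.9 ± 0.825 TPM).

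Isoforms of the same step differed widely in level. Phosphofructokinase came from PFKL (89.3 ± 1.96 TPM) and PFKM (73 ± 1.26 TPM), while the platelet form PFKP was at 0.126, 0.367 and 0.384 TPM. ENO1 exceeded ENO2 31.9 ± 0.749-fold. The glucose transporter SLC2A1 (GLUT1) stood at 81.3 ± 1.81 TPM, 23.2 ± 2.39-fold above SLC2A3 (GLUT3). The lactate transporter SLC16A1 (MCT1) exceeded SLC16A3 (MCT4) 11.4 ± 0.379-fold, or 7.43-fold with the longest transcripts. The tissue-restricted forms PKLR and LDHC were under 1 TPM and PGAM2, PGK2 and GAPDHS were silent.

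In the citric acid cycle 23 of 24 genes were expressed, led by MDH2 at 408 ± 11.8 TPM. The exception was PC, pyruvate carboxylase, at 0.696, 0.49 and 0.414 TPM. The mitochondrially encoded genes ranged from 3114 ± 401 TPM (MT-ND5) to 16545 ± 1813 TPM (MT-CO3), and MT-CO3 stood at 14581, 16899.8 and 18154 TPM in replicates 1, 2 and 3. Nuclear copies share reads with these genes. The copy MTATP6P1 stood at 2117 ± 338 TPM, the highest non-coding entry among those of at least 200 bases, immunoglobulin and T-cell receptor segments left out.

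Serine, one-carbon and glutamine genes were expressed in 21 of 22, at a median of 174 TPM. The serine synthesis enzymes PHGDH, PSAT1 and PSPH stood at 105 ± 2.84, 257 ± 8.96 and 66.1 ± 1.99 TPM. The mitochondrial SHMT2 stood at 451, 428 and 431 TPM and exceeded the cytosolic SHMT1 13.9 ± 0.256-fold, or 8.97-fold with the longest transcripts. The amino acid transporters SLC7A5 and SLC3A2, which form LAT1, stood at 422 ± 3.61 and 167 ± 3.19 TPM, and the glutamine transporter SLC1A5 at 336 ± 8.91 TPM. The glutaminase gene GLS2 had 1 count in 3 libraries. Asparagine synthetase ASNS stood at 229 ± 9.34 TPM. All 19 nucleotide synthesis genes were expressed, led by IMPDH2 at 451 ± 12.7 TPM, 6.7 ± 0.289-fold above IMPDH1.

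All 22 cholesterol genes were expressed, at a median of 104 TPM. HMGCS1, an early enzyme of the pathway, was the highest at 642, 677 and 658 TPM. FDFT1 stood at 433 ± 14.2 TPM and the regulator SREBF2 at 216 ± 0.596 TPM. Fatty acid synthesis was high in SCD (706 ± 20.2 TPM), FASN (600.3 ± 12.7 TPM) and ACLY (415 ± 7.2 TPM). On the side of oxidation HADHA stood at 353 ± 9.48 TPM and ACADM at 218 ± 5.39 TPM, but CPT1A, which admits long-chain fatty acids to mitochondria, was at 0.0814, 0.172 and 0.192 TPM and its relative CPT1B at 2.23, 1.91 and 2.25 TPM.

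**Figure D4:**
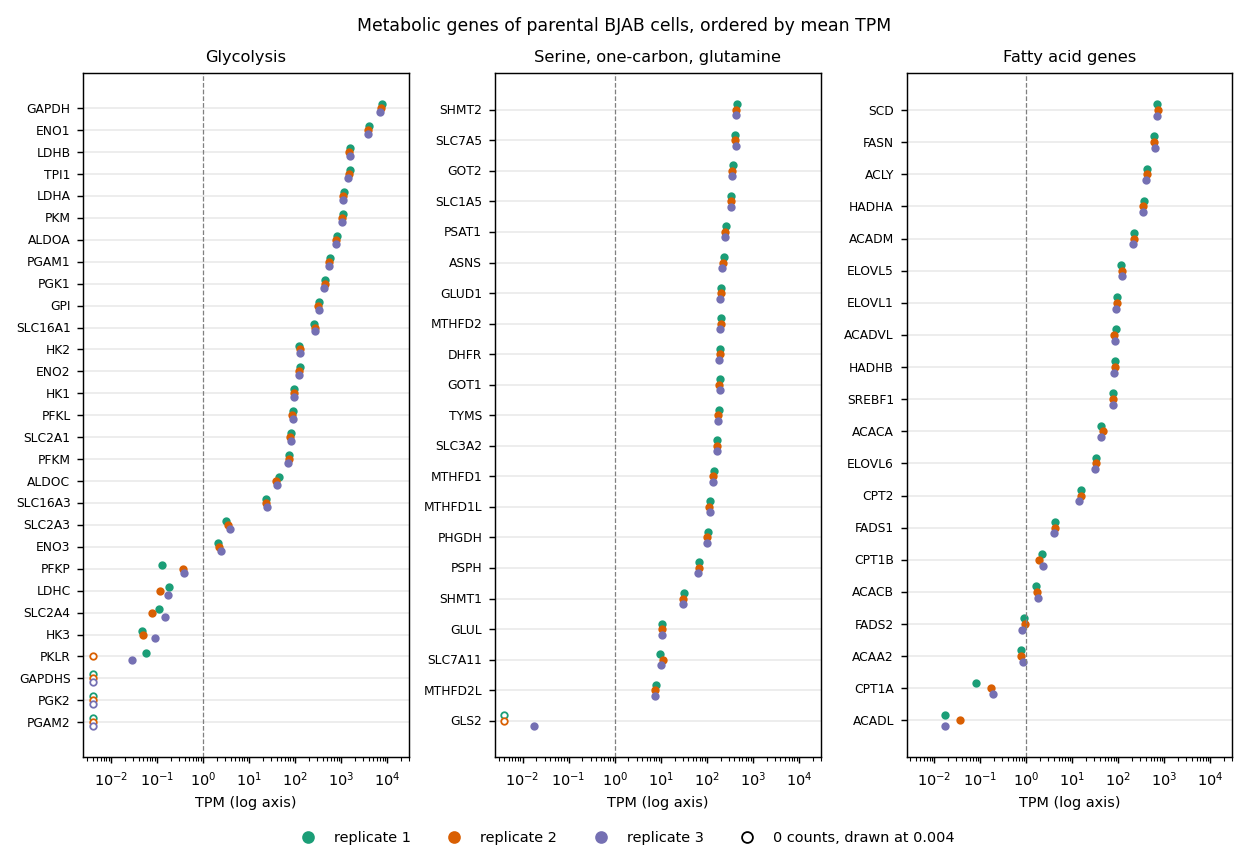
TPM (log axis) of glycolysis, serine with one-carbon and glutamine, and fatty acid genes in each library, ordered by mean TPM; open points at 0.004 are libraries with 0 counts and the dashed line marks 1 TPM. The 3 libraries overlap for the expressed genes, and PFKP and CPT1A are under 1 TPM and lowest in replicate 1.

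Markers of other cell types were low or silent with a few exceptions. Of 13 T-cell markers 6 were silent, among them CD2, CD7, CD8A and CD28, and CD3D had 0, 1 and 0 counts. TRAC, the T-cell receptor alpha constant gene, was the exception at 118, 118 and 125 TPM. TRBC1 had 1 count in all and TRBC2 none, and only 26 to 35 counts per library fell on alpha and delta V segments against 170 to 217 on J segments. CD3E was near the threshold at 1.26, 1.13 and 1.04 TPM. Of the natural killer genes NKG7 stood at 8.09 ± 0.163 TPM and KLRD1, NCR1 and GZMB were silent.

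EPCAM, an epithelial adhesion protein, stood at 133, 135 and 131 TPM in replicates 1, 2 and 3. Other epithelial markers did not accompany it: KRT8, KRT18 and KRT5 were silent and CDH1 had 1, 0 and 0 counts. MBP, which encodes myelin basic protein and overlapping transcripts of blood cells, stood at 8.78 ± 0.237 TPM, while GFAP (0.0549 ± 0.00713 TPM) and SYP (0.427 ± 0.071 TPM) were not expressed and SNAP25 was silent. Of the HOX list 8 of 20 were expressed, against 52.3% of all protein-coding genes, led by HOXC4 at 58.4 ± 2.1 TPM and HOXB7 at 22.2 ± 1.87 TPM. Erythroid, platelet, fibroblast and endothelial markers were all under 1 TPM, and HBA1, PF4 and CDH5 were silent. Of myeloid markers 4 of 12 were expressed: CSF1R at 4.7 ± 1.81 TPM, CD33 at 3.06 ± 0.202 TPM, ITGAX at 3.04 ± 0.849 TPM and ITGAM at 2.13 ± 0.734 TPM. The list summed to 11.5, 17.5 and 18.4 TPM, lowest in replicate 1, with FCGR3A, S100A8 and MPO silent.

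Members outside the usual B-cell lists were found when gene families were ranked. The cadherin CDH19 stood at 25.1, 27.7 and 27.1 TPM and was the only 1 of 23 cadherins expressed. SOX8 stood at 97.8 ± 3.48 TPM as the highest SOX factor and TAS2R38, a bitter taste receptor, at 5.26 ± 0.562 TPM. Among keratins KRT10 (122 ± 6.92 TPM) and KRT9 (42 ± 0.329 TPM) were expressed and 37 of 50 were silent. PAX5 was the only one of 9 PAX factors at 1 TPM. These genes were chosen by rank within their family after values were seen, and the library kit does not mark strand, so their reads cannot be told apart from those of overlapping or antisense genes.

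Of the protein-coding genes 3685 (18.7%) were silent, and 5726 lay between 0 counts and the call of expression. Whole families were silent or nearly so. Of 383 olfactory receptors 349 were silent and none was expressed. Of 94 keratin-associated proteins 92 were silent, of 39 beta defensins 38, and of 17 type I interferon genes 15. Among testis-restricted antigens 14 of 19 were silent and PRAME alone passed 1 TPM (1.46 ± 0.106 TPM). By contrast all 34 aminoacyl-tRNA synthetases and 37 of 39 proteasome subunits were expressed.

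Silent genes lay in runs along the chromosomes. The longest run was 48 neighbouring protein-coding genes on chromosome 11 (chr11:48975501-56491370), from TRIM51G to OR5M8, of which 42 are olfactory receptors. Chromosome 1 held a run of 37 genes from LCE3E to PGLYRP4 (chr1:152565654-153348840), the epidermal differentiation cluster. Chromosome 17 held a run of 34 from KRTAP3-3 to KRTAP17-1 (chr17:40993430-41315695) and chromosome 21 one of 32 from CLDN17 to KRTAP8-1. Over the autosomes and X the silent share ran from 12% on chromosomes 16 and 22 to 33% on chromosomes 21 and X. A gene with 0 counts could still be present at up to 3 counts, which is 0.0643 to 0.0689 CPM in these libraries.

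Among non-coding host genes, the growth-arrest transcript GAS5 stood at 154 ± 4.66 TPM and SNHG1 at 115 ± 1.5 TPM, both hosts of small nucleolar RNAs. MIR142HG, host of the blood-cell miRNA miR-142, stood at 33.2, 35.1 and 32.1 TPM in replicates 1, 2 and 3. MIR17HG, host of the miR-17-92 cluster that MYC activates, stood at 10.5, 11.2 and 11.4 TPM. MIR155HG, host of miR-155 and induced by activation, stood at 3.77, 2.52 and 2.37 TPM, highest in replicate 1. MIR17HG exceeded MIR155HG 4.01 ± 1.08-fold, or 6.89-fold with the longest transcripts. Processing removes the hairpin from the host and polyadenylated RNA holds no mature miRNA, so these are levels of the host alone. The mature guides these hosts encode (RefSeq, GRCh38.p14) are shown with the seed, bases 2 to 8, in capitals, because the seed groups them by target.
miR-17-5p: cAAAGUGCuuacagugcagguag
miR-20a-5p: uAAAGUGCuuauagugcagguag
miR-18a-5p: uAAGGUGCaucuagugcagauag
miR-19a-3p: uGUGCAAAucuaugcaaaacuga
miR-19b-3p: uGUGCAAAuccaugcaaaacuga
miR-92a-3p: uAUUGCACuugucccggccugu
miR-142-3p: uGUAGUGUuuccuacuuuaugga
miR-155-5p: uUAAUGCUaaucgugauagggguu
Of the 6 from MIR17HG, miR-17 and miR-20a share 1 seed and miR-19a and miR-19b share another. The nuclear long RNAs MALAT1 and NEAT1 stood at 21.8 ± 3.51 and 14.1 ± 0.737 TPM, and MEG3 was silent.

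At 1.5-fold, replicate 1 differed from both other libraries in a small and one-sided set of genes. With no fold threshold the lean was the other way, with 33.9% of genes lower in replicate 1 than in both others and 41.1% higher. By order alone, any 1 of 3 alike libraries would be lowest in about 1 of 3 genes and highest in about as many. These shares therefore do not show how many genes differ, and they were not computed for replicates 2 and 3. Of 12072 genes, 129 (1.07%) were at least 1.5-fold lower in replicate 1 than in each of the others on scaled CPM, and 12 (0.0994%) were at least 1.5-fold higher. The same counts were 13 (0.108%) lower and 5 (0.0414%) higher for replicate 2, and 17 (0.141%) lower and 7 (0.058%) higher for replicate 3. One library against 2 allows no replicate test, so the values below are a description. The 129 genes had a median ratio of replicate 1 to the mean of the others of 0.49, from 0.31 to 0.649, and 125 are protein-coding. They were low genes, with a median of 1.97 CPM against 28.1 for all genes tested, and 8 of them reached 10 CPM. Together they took 0.0328, 0.0682 and 0.0668% of counts in replicates 1, 2 and 3.

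Genes known from macrophages and from adherent cells were among those lower in replicate 1. SPP1 (osteopontin) had 61.1, 127 and 120.0 CPM in replicates 1, 2 and 3, a ratio of 0.495 (95% interval 0.475 to 0.516). The interleukin gene IL1B had 19.2, 41.7 and 39.9 CPM, a ratio of 0.47 (95% interval 0.437 to 0.507). The protease gene MMP14 had 14.9, 32.1 and 31.3 CPM. The protease inhibitors A2M and TIMP1 had 9.35, 21 and 20.1 CPM and 3.43, 7.12 and 8.24 CPM. In each of these genes replicates 2 and 3 lay close together and replicate 1 well below them.

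CHI3L1, a secreted lectin of macrophages, had 8.78, 19.6 and 18.7 CPM, the lysosomal protease CTSL 4.83, 11.6 and 10.3 CPM and the integrin ITGA5 5.57, 11.6 and 12.9 CPM. CSF1R, the receptor that defines the macrophage lineage, had 3.87, 8.21 and 8.71 CPM, a ratio of 0.456 (95% interval 0.385 to 0.538). The chemokines CCL5 and CCL3 had 0.764, 2.43 and 2.5 CPM and 1.35, 3.23 and 3.04 CPM, and the filament protein VIM 2.03, 4.55 and 4.9 CPM. These intervals cover counting error only. SPP1, CCL5, CCL3 and VIM were picked after their values were seen. The other lower genes named so far are the 8 protein-coding genes at 5 CPM or more most below both others.

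A list of 26 macrophage genes was put together after these values were seen, so its counts are no independent evidence. Of its members 5 stand in other lists used here. At a mean of 1 CPM or more there were 13, of which 12 were at least 1.5-fold lower in replicate 1 and all 13 were lower than in both others. The filter favours this outcome, because MERTK, TREM2 and TYROBP, under 1 CPM in replicate 1, passed it only through replicates 2 and 3. Of members under the filter with counts, CD163, APOE and LYZ were lower in replicate 1 than in both others. CD14, CD68, FCGR2A, VSIG4 and AIF1 were not. Of all genes tested 33.9% were lower in replicate 1 than in both others, and 41.1% were higher. The median log2 ratio of the 13 was -1.01 against 0.01 for all genes tested. The summed level of the list was 152, 310.3 and 288 TPM in replicates 1, 2 and 3. GPNMB was the exception at 13, 13.2 and 13.6 CPM, with a ratio of 0.969 (95% interval 0.877 to 1.07). Among defining genes MRC1, MARCO, C1QA, C1QB and C1QC had 0 counts in all libraries, CD163 stood at 0.328, 0.686 and 0.599 CPM and CD14 at 0.546, 0.412 and 0.535 CPM. Whether other cells or the BJAB cells themselves gave rise to these transcripts was not tested.

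**Figure D5:**
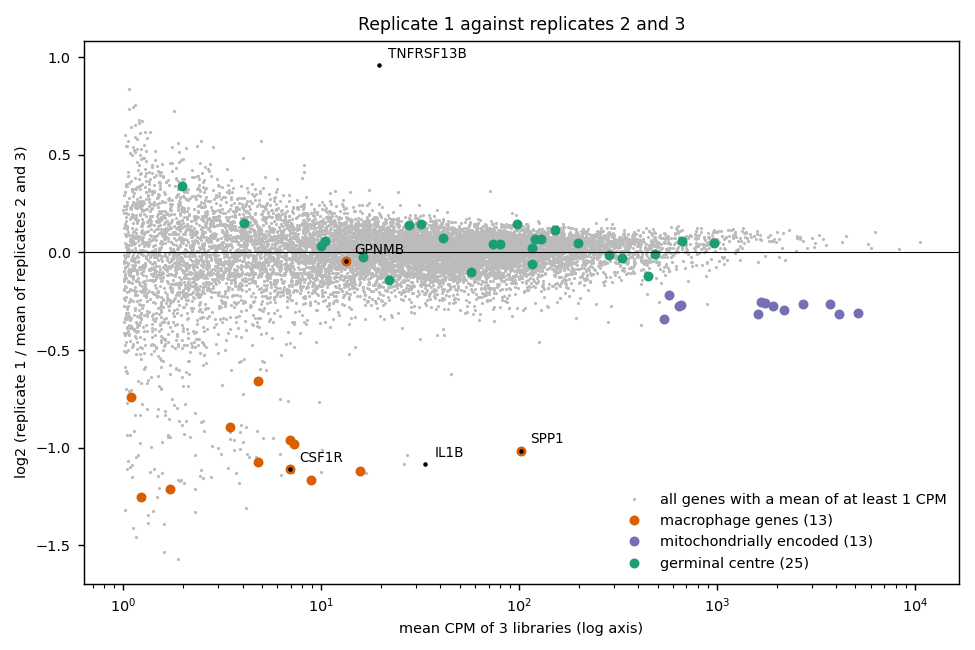
Log2 ratio of replicate 1 to the mean of replicates 2 and 3 against mean CPM (log axis) for the 12072 genes with at least 1 CPM; colours mark macrophage, mitochondrially encoded and germinal centre genes. Macrophage genes lie near -1 apart from GPNMB, mitochondrial genes near -0.3, germinal centre genes around 0, and TNFRSF13B stands alone near 1.

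TNFRSF13B was the 1 gene with a mean of at least 5 CPM that was at least 1.5-fold higher in replicate 1. It had 1325, 663 and 679 counts and 28.9, 15.2 and 14.5 CPM in replicates 1, 2 and 3, a ratio of 1.95 (95% interval 1.81 to 2.1). The next genes in order were PIGF, a gene of lipid anchor synthesis, with 9.48, 7.21 and 7.32 CPM, the myosin gene MYH6 with 81.5, 65.8 and 65.3 CPM, and KRTCAP2 with 13.5, 10.7 and 10.9 CPM. None of them, nor ERFL, CCDC78, RAB23 or GSTM4, reached 1.5-fold. TNFRSF13B is also the gene added to the other lines of the study, and the origin of the excess in replicate 1 was not tested.

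The mitochondrially encoded genes shifted together by a smaller step. All 13 of 13 were lower in replicate 1 than in both others, with a median log2 ratio of -0.27, and none passed 1.5-fold. Their share of counts was 2.38, 2.78 and 3.08% in replicates 1, 2 and 3. In the B-cell surface, transcription factor, germinal centre, receptor signalling, glycolysis and cell cycle lists 0 members passed 1.5-fold in either direction. Each of these lists holds only 17 to 25 members at 1 CPM or more. Over all 12072 genes 1.07% passed on the lower and 0.0994% on the higher side, so 0 lies near the share of all genes. Listed genes that did pass 1.5-fold on the lower side were CXCL8, CCL3 and CCL5 among cytokines, JUN among immediate early genes, CD44 among homing receptors, TLR2 among Toll-like receptors, and ITGAX, CSF1R and ITGAM among myeloid markers. On the higher side they were TNFRSF13B and the miRNA host MIR155HG.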

How the data were processed

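Polyadenylated RNA of sorted cells was made into Nextera XT libraries, per the labels' protocols. This kit does not mark strand, so antisense and overlapping genes cannot be told apart. The authors deposited unnormalized counts with a gene length for 57500 Ensembl genes in each of 3 libraries, each sample in its own file. The submitters' processing notes name FastQC, STAR 2.4.0h, HTSeq and hg38, while the file columns follow the featureCounts layout. Annotation release, strand setting and filters are not given in the sources used here. Gene types came from GENCODE 29 (56898 IDs matched, 54784 with the same start and end) and symbols for 56410 IDs from a table of current names.

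TPM was computed from counts and deposited lengths. CPM used TMM factors of edgeR 4.0.16 (R 4.3.3), which also gave the coefficient of variation. No group was tested, since the parental line alone was described. A gene was called higher or lower in a replicate at 1.5-fold from each other library with a mean of at least 1 CPM. The 95% intervals of ratios are exact for the counts and cover counting error only, so they leave out variation between libraries. PCR copies of a molecule are counted as separate reads, so the intervals may be too narrow even for counting error. Total counts were 43554984 to 46660642, and 3 counts equal 0.0643 to 0.0689 CPM.

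The members, gene lists and alternatives were chosen with earlier results of these data known. The macrophage list, the promoter search and the naming of VIM, CCL3 and CCL5 for replicate 1 were added after values were seen. Named are the 4 given markers, TNFRSF13B, the 20 nuclear protein-coding genes and the 8 non-coding genes of highest TPM, members of 42 lists, the leading immunoglobulin segments, and the 8 protein-coding genes at 5 CPM or more most above, and 8 most below, both others in replicate 1. Non-coding genes were ranked among those of at least 200 bases, without immunoglobulin and T-cell receptor segments. BAGE and RMRP matched no single row and were left out. Some genes are counted in their lists but not reported here by name. Alternatives were other thresholds, gene lengths and scalings, with DESeq2 1.42.0 size factors among them, and each library left out.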

Additional observations from a re-analysis of the deposited data

How the results depend on the processing

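The number of expressed protein-coding genes stayed between 9664 and 10925 under thresholds of 2 and 0.5 TPM, 1 CPM, other lengths and scaling over nuclear protein-coding genes, and between 10366 and 10401 without 1 replicate. Silent genes numbered 5855 when up to 3 counts per library were allowed, and 4003 to 4089 without 1 replicate. The 100 leading genes outside the mitochondrial genome held 20.1% of the counts there, and 21.1 to 21.3% of all counts without 1 replicate.

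For replicate 1, the 12 higher and 129 lower genes were 11 and 132 with scaling by total counts and 12 and 129 with DESeq2 size factors. They were 1 and 20 at a mean of 5 CPM, 2869 and 2845 with no filter but 1 count, and 0 and 54 at 2-fold. Without replicate 2 or 3 the higher genes were 43 to 58 and the lower genes 160 to 165. With no filter the higher and lower genes were thus alike in number. The cause of these shifts was not tested.

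The longest transcript as length was chosen after the data were seen. It moved 172 of 718 listed genes by over 1.5-fold. Scaling over nuclear protein-coding genes raised levels by a median factor of 1.22 and moved none of 671 by that much. No paired analysis was possible because only 1 group was described and its values come from no test. Genes near 3 counts, such as IRF4, CCND2 and GLS2, are at the limit of the depth. Leaving out a library moved the mean level of 51 listed genes by over 1.5-fold, and the highest of these had a mean of 0.972 TPM over the 3 libraries.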
